A study of Mus musculus with 6 samples.

Results

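The genes described here are 10 members of the p53 pathway, chosen as the rows of the count table whose symbol is Trp53, Mdm2, Cdkn1a, Ccng1, Btg2, Pmaip1, Bbc3, Bax, Trp53inp1 and Perp. All 10 were found among the 18180 genes of the deposited count table, and all 10 passed the low-count filter that left 15061 genes for testing. RNA was sequenced from tail skin of mice, with 3 libraries in each of 2 groups. The libraries labelled cKO came from Mettl3fl/fl;K14creERT2+/- mice and were taken from spontaneously inflamed tail areas. The control libraries came from Mettl3fl/fl;K14creERT2-/- mice and were taken from normal tails, so both groups carried the floxed Mettl3 alleles. METTL3 is the methyltransferase that places the m6A mark on RNA, and K14creERT2 is a tamoxifen-dependent Cre recombinase driven by a promoter of basal keratinocytes, so dermal and blood-derived cells in the tissue were not its target. Collection followed 4 weeks after 5 daily tamoxifen injections. The design text does not name the groups that were injected, and the labels give no ages of the mice. Genotype and inflamed tissue went together and cannot be told apart.

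The protein p53 is a transcription factor that is kept low by the ubiquitin ligase MDM2, itself a p53 target, and that accumulates after DNA damage, oncogene activity or ribosome stress. Its targets stop the cell cycle, as p21 (Cdkn1a) does, or open the mitochondrial route to apoptosis, as NOXA (Pmaip1), PUMA (Bbc3) and BAX do. In epidermis several of these genes are also reached by other factors, among them p63, the p53 relative that maintains basal keratinocytes.

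Sites that p53 binds are built from pairs of a decamer of 10 bases. Each decamer is a half-site whose pattern reads the same on both strands. This half-site was searched on both strands in the RefSeq promoter windows of build GRCm38.p6, each of 300 bases from 250 before to 50 after a gene's start. A match describes the letters only, and a single match is not a full site. Of the 10 genes 7 were matched to a window, while Pmaip1, Trp53inp1 and Perp were not. A match stood in the windows of 5 of these 7, against 9.55% of 27025 genes and 8.36% of 32851 windows in the whole table. The 7 genes had 10 windows between them. They were picked as p53 pathway genes, so their share is not independent of that choice. The matched stretches are printed 5′ to 3′ on the gene's strand, with the decamer in capitals, because they include genes that rose, a gene that fell and a gene that did not pass the test.
Trp53, chr11:69580264-69580313, plus strand: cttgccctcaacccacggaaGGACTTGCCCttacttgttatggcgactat
Mdm2, chr10:117710915-117710964, minus strand: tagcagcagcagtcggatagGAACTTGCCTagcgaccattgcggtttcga
Cdkn1a, chr17:29090886-29090957, plus strand: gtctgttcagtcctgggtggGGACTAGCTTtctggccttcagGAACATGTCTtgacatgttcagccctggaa
Ccng1, chr11:40755442-40755491, minus strand: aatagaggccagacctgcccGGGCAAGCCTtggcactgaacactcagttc
Bax, chr7:45467070-45467119, minus strand: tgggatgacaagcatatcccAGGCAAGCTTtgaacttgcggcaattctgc
The first capital base lies 75 bases before the start of Trp53, 186 before that of Mdm2, 185 before that of Ccng1 and 201 before that of Bax. Cdkn1a holds 2 matches, which begin 73 and 51 bases before the start of its printed window's transcript. The letters right after the second match miss the pattern only at their first base, so they stand in lower case. All distances are to the start on which the printed window was set, which need not be a gene's main start. The windows of Btg2 and Bbc3 held no such letters.

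Library totals ran from 35855880 to 36113956 counts in the libraries labelled cKO and from 36115822 to 37043849 counts in control. The targeted gene Mettl3 was higher in the libraries labelled cKO (14.9 ± 0.832 CPM) than in control (10.7 ± 1.42 CPM, SD, n = 3 each), with a log2 fold change of 0.48 (SE 0.11, edgeR adjusted p = 0.000102). That goes against the label, and the counts are per gene, not of the floxed part alone. CPM are counts divided by the library total after TMM scaling, and every value given with ± is a mean ± SD of 3 libraries. All 7 keratinocyte markers were detected in every library, with a summed level of 57088 to 57771 CPM in the libraries labelled cKO and 28705 to 28964 CPM in control, 4 of them higher and 3 lower. Krt1 differed most in CPM, at 20492 CPM in the libraries labelled cKO against 2170 CPM in control. The 3 lower ones were Krt15, Col17a1 and Trp63, which fell 2.07-fold, 1.56-fold and 1.13-fold. The 7 neutrophil markers summed to 3479 to 3540 CPM in the libraries labelled cKO and 100.2 to 106 CPM in control. Nearly all of that sum came from S100a9 (2039 CPM against 53.4 CPM in control) and S100a8 (1449.7 CPM against 43.5 CPM), which inflamed keratinocytes also express. The receptor gene Csf3r had 11.6 CPM against 1.74 CPM in control, and Cxcr2 had 8.05 CPM against 4.77 CPM. The 6 markers that were tested rose, and Ly6g was at 0 in 2 control libraries and Trem1 and Retnlg in 1 each. Macrophage markers summed to 646 to 668 CPM against 469.6 to 478 CPM in control, and fibroblast markers to 16139.8 to 16182 CPM against 11087 to 11189.7 CPM. All 7 macrophage markers rose, and of 6 fibroblast markers 5 rose and 1 fell, where 30.8% of all genes tested rose. Sebaceous gland markers were the other way round, at 2234 to 2243 CPM in the libraries labelled cKO and 5149 to 5196 CPM in control. In such tissue more or fewer cells of a type and more or less RNA per cell cannot be told apart, and the part of these cell types in the values below was not tested.

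The 10 genes did not move as a block. Pmaip1 rose most and Trp53inp1 fell most, Ccng1 and Trp53 rose by less than 2-fold, and Cdkn1a, the best known p53 target, was 11.1% lower. With edgeR's quasi-likelihood test and an adjusted p under 0.05, 8 of the 10 differed, in a comparison where 61.4% of all genes tested did. Of these, 5 rose (30.8% of all genes tested rose) and 3 fell (30.6% fell). At least 1.5-fold changes were seen in 3 of the 10, against 22.7% of all genes tested, and a change of at least 2-fold in 1, against 10.8%. The median log2 fold change of the 10 was 0.03, beside 0.0021 over all genes tested, and the median absolute value was 0.23 beside 0.32. In 9 of the 10 the groups did not overlap in CPM, as in 64.9% of all genes tested. Nothing in the labels states that the libraries come from separate animals, and p-values here then rest on library-to-library spread alone, possibly a technical one. Libraries of a group lay close together: over genes with a mean of 1000 to 3000 counts the median coefficient of variation was 3.94% in the libraries labelled cKO and 3.95% in control. When a biological coefficient of variation (BCV) of 20% was put in place of the measured spread, Pmaip1, Ccng1 and Trp53inp1 still passed, against 22.3% of all genes, while Trp53, Cdkn1a, Btg2, Bax and Perp did not. At 40%, Pmaip1 passed, against 5.14% of all genes.

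**Figure D1:**
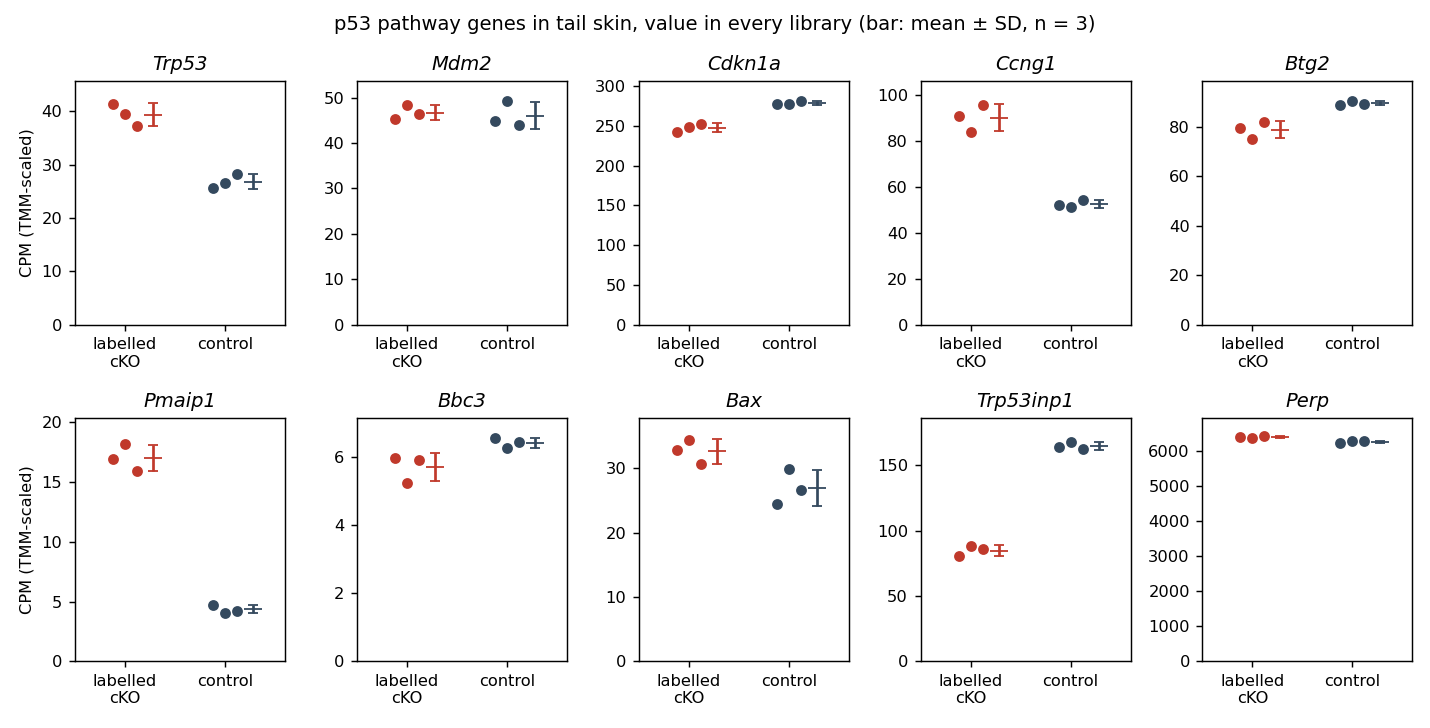
CPM (vertical axes, from 0) of the 10 p53 pathway genes in each of the 3 libraries labelled cKO (red) and the 3 control libraries (dark), with mean ± SD beside the points. The groups overlap for Mdm2 alone among these 10 genes, and the widest gap relative to its level is that of Pmaip1, with 15.9 to 18.1 CPM in the libraries labelled cKO and 4.08 to 4.74 CPM in control.

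**Figure D2:**
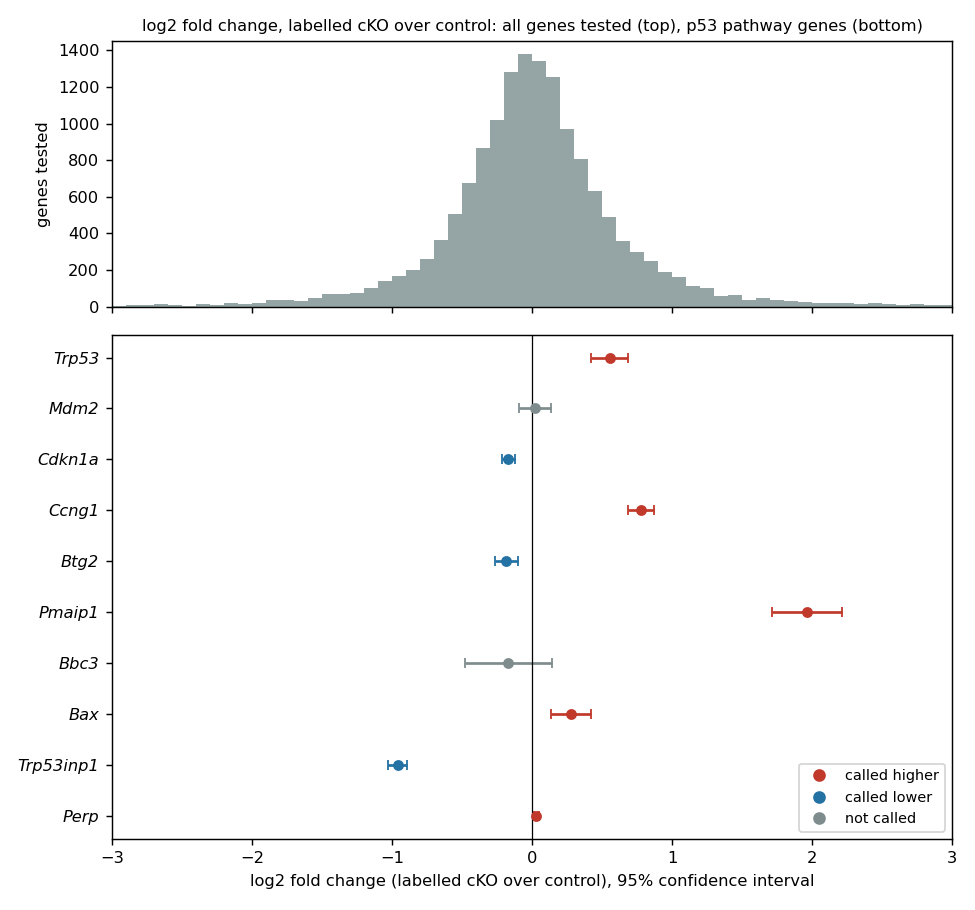
Log2 fold change of the libraries labelled cKO over control (horizontal axis), as a histogram of all genes tested (top; 184 genes lie beyond the axis) and as points with 95% confidence intervals for the 10 genes (bottom). Pmaip1 lies at 1.96 and Trp53inp1 at -0.96, while Mdm2, Perp, Cdkn1a, Bbc3 and Btg2 lie within 0.2 of zero.

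Among the regulators, Trp53 itself (NCBI gene 22059) had 41.4, 39.6 and 37.2 CPM in the libraries labelled cKO, against 25.5, 26.5 and 28.3 CPM in control. Every library labelled cKO was above every control library. Trp53 rose 1.47-fold (log2 fold change 0.56, SE 0.066, adjusted p = 1.67e-11). The GENCODE annotation holds a pseudogene, Trp53-ps, whose reads the deposited counting could have shared with the gene, since the treatment of multiply aligned reads is not stated. Mdm2 (NCBI gene 17246), the ligase that marks p53 for degradation and closes its feedback loop, had 45.2, 48.4 and 46.4 CPM in the libraries labelled cKO and 44.7, 49.4 and 44.0 CPM in control. The groups overlapped, and the test did not pass (log2 fold change 0.02, 95% confidence interval -0.09 to 0.13, adjusted p = 0.763).

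Of 12 tested genes that restrain p53, 8 fell and 2 rose (83.3% called, beside 61.4% of all genes tested, median log2 fold change -0.26). The ubiquitin ligase gene Pja2 fell 1.446-fold, Trim24, another one, fell 1.38-fold, and Ppp1r13l, which encodes iASPP, fell 1.24-fold. Mdm4, the MDM2 partner that covers the p53 activation domain, fell 1.19-fold to 77.3 ± 1.11 CPM, against 91.7 ± 4.08 CPM in control. The corepressor gene Trim28 rose 1.16-fold and the deacetylase gene Hdac1 rose 1.2-fold. Of 15 tested genes that stabilise or activate p53, 6 fell and 2 rose (median -0.10), and the 53.3% called is below the 61.4% of all genes tested. Both risers were checkpoint kinases, Chek2 (7.80 ± 0.98 CPM against 3.83 ± 1.19 CPM in control, 2.03-fold) and Chek1 (8.67 ± 1.41 CPM against 4.51 ± 0.587 CPM, 1.92-fold), and Chek1 is itself a gene of the dividing cell. The acetylase gene Crebbp fell 1.34-fold, Usp7, whose product removes ubiquitin from MDM2 and p53, fell 1.26-fold, and the damage kinase gene Atr fell 1.17-fold, a call lost by limma on filtered log2 FPKM. Cdkn2a, which encodes the MDM2 antagonist ARF as well as p16, had 20, 29 and 9 counts in the libraries labelled cKO and 5, 2 and 8 counts in control and was too low to be tested. Of the p53 relatives, Trp63 fell 1.13-fold (189 ± 1.25 CPM against 214 ± 5.23 CPM in control, adjusted p = 1.39e-08), and Trp73 did not pass (10.3 ± 0.188 CPM against 9.33 ± 0.449 CPM, adjusted p = 0.293).

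The products p21 and BTG2 restrain the cell cycle, and cyclin G1 is described with them here. Cdkn1a (NCBI gene 12575), which encodes the CDK inhibitor p21, had 243, 248 and 253 CPM in the libraries labelled cKO, against 278, 277 and 282 CPM in control. The groups did not overlap, and Cdkn1a fell by 11.1% (log2 fold change -0.17, SE 0.024, adjusted p = 2.14e-09). Ccng1 (NCBI gene 12450), whose product cyclin G1 brings the phosphatase PP2A to MDM2, had 91.0, 84.0 and 95.5 CPM in the libraries labelled cKO and 52.0, 51.0 and 54.5 CPM in control. It rose 1.72-fold, with the lowest library labelled cKO well above the highest control (log2 fold change 0.78, SE 0.046, adjusted p = 5.58e-25), and 1459 of the 15061 genes tested rose by more. Btg2 (NCBI gene 12227) encodes an antiproliferative adaptor of the CCR4-NOT deadenylase and is also induced within minutes by stress and growth factors. It had 79.3, 75.2 and 81.8 CPM in the libraries labelled cKO, against 88.7, 90.4 and 89.3 CPM in control. That is a fall of 1.14-fold without overlap (log2 fold change -0.18, SE 0.041, adjusted p = 7.35e-05).

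The relatives and partners of Cdkn1a, Ccng1 and Btg2 moved in several directions. Of 6 other CDK inhibitor genes tested, 3 fell and 1 rose (66.7% called, beside 61.4% of all genes tested, median log2 fold change -0.22). Cdkn2b, which encodes p15, fell 2.05-fold (12.1 ± 0.383 CPM against 24.9 ± 0.593 CPM in control), Cdkn1b, which encodes p27, fell 1.30-fold, and Cdkn1c, which encodes p57, fell 1.23-fold with an adjusted p of 0.0433 that 9 of 19 alternatives did not keep under the threshold. Cdkn3, a phosphatase gene of dividing cells, rose 2.34-fold. Among 15 CDK, cyclin and PCNA pathway genes that p21 binds or acts through, 13 rose and 1 fell (93.3% called, where 30.8% of all genes tested rose, median 0.60). Ccne1, the cyclin E1 gene, rose 3.44-fold (10.4 ± 1.85 CPM against 3.02 ± 1.02 CPM in control), Cdk1 rose 2.20-fold and Ccnb2 rose 2.18-fold, while Rb1 fell 1.34-fold. Of 18 cell cycle genes described as repressed through p53, p21 and the DREAM complex, 17 rose and Kif23 did not pass (94.4% called, median 1.13). Over all genes tested 61.4% were called and 30.8% rose. These 18 are also general genes of dividing cells, and whether p53 or p21 had a part in their rise was not tested. The mitotic kinase gene Aurka rose 3.11-fold, Plk1, another, rose 2.89-fold (18.6 ± 1.53 CPM against 6.44 ± 1.18 CPM) and the survivin gene Birc5 rose 2.40-fold. The 2 lists share Cdk1, Ccna2, Ccnb1 and Ccnb2. All 4 tested BTG and TOB relatives of Btg2 fell, Btg3 and Btg1 by 1.14-fold each, Tob1 by 1.12-fold and Tob2 by 1.096-fold, where 30.6% of all genes tested fell. For Tob2 the groups overlapped in CPM, and its edgeR adjusted p of 0.030 is above the stricter threshold of 0.01. The deadenylase subunit genes Cnot7 and Cnot8, which complete that list of 6, did not pass. Over the 6 genes 66.7% were called, beside 61.4% of all genes tested, with a median of -0.15. Immediate early genes, which Btg2 belongs to, were split into 9 higher and 8 lower of 18 (94.4% called, beside 61.4% of all genes tested, median 0.04). In that list Fosl1 rose 2.38-fold, Fos rose 1.61-fold and Atf3 rose 1.43-fold, while Fosb fell 2.22-fold, Egr2 fell 1.26-fold and Egr3 fell 1.22-fold. The Atf3 call was lost without replicate 3 of the libraries labelled cKO (log2 fold change 0.42). Of 9 cyclin relatives and PP2A genes around Ccng1, 3 rose and 5 fell (88.9% called, beside 61.4% of all genes tested, median -0.17). Ccng2, the closest relative, rose 1.11-fold (50.6 ± 1.31 CPM against 45.4 ± 1.43 CPM in control), Ppp2r2a rose 1.30-fold and Ppp2ca rose 1.12-fold. Ccni fell 1.55-fold, Gak fell 1.27-fold and Ppp2cb fell 1.23-fold.

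Among the apoptosis genes of the 10, the largest rise was that of Pmaip1 (NCBI gene 58801), which encodes NOXA, a BH3-only protein that disables MCL1 and can also be induced without p53. It had 611, 659 and 580 counts in the libraries labelled cKO, against 174, 146 and 156 counts in control. In CPM these were 16.9, 18.1 and 15.9 in the libraries labelled cKO and 4.74, 4.08 and 4.25 in control, which is a 3.90-fold rise (log2 fold change 1.96, SE 0.12, adjusted p = 1.39e-23). The lowest library labelled cKO was far above the highest control, and 289 of the 15061 genes tested rose by more. Bbc3 (NCBI gene 170770), which encodes PUMA, another BH3-only protein, had 5.95, 5.23 and 5.91 CPM in the libraries labelled cKO and 6.54, 6.25 and 6.43 CPM in control. The libraries labelled cKO were all lower, but at 190 to 240 counts a library the test did not pass (log2 fold change -0.17, 95% confidence interval -0.48 to 0.14, adjusted p = 0.352). Bax (NCBI gene 12028), the pore-forming protein downstream of both, had 32.9, 34.4 and 30.6 CPM in the libraries labelled cKO, against 24.4, 29.9 and 26.6 CPM in control. It rose 1.21-fold, with a narrow gap between the lowest library labelled cKO and the highest control (log2 fold change 0.27, SE 0.072, adjusted p = 0.000643). In the GENCODE annotation of GRCm38, 192 exon bases of Bax are shared with Gm45808 on the same strand, and 273 exon bases of Cdkn1a with AC167363.2 on the opposite strand. Neither partner was in the count table and no source used here gives the strand setting of the counting.

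Trp53inp1 (NCBI gene 60599) encodes a stress protein that acts in autophagy and strengthens p53 activity. It had 80.5, 87.9 and 85.8 CPM in the libraries labelled cKO and 164, 168 and 162 CPM in control. All libraries labelled cKO lay below all controls, a fall of 1.94-fold (log2 fold change -0.96, SE 0.034, adjusted p = 5.77e-38), and 846 of the 15061 genes tested fell by more. Perp (NCBI gene 64058), a p53 and p63 target that encodes a membrane protein of desmosomes, had 6389, 6358 and 6407 CPM in the libraries labelled cKO, against 6216, 6273 and 6258 CPM in control. Its level was so precisely repeated between libraries that a rise of 2.17% passed the test (log2 fold change 0.03, SE 0.0085, adjusted p = 0.00121), smaller than the change of 94.5% of all genes tested. Over the 21 alternatives, which include other scalings, the log2 fold change of Perp ran from 0.029 to 0.060.

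The partners of these proteins were also divided. Of 21 tested BCL2 family and apoptosome genes, 9 rose and 7 fell (76.2% called, beside 61.4% of all genes tested, median log2 fold change 0.21). Over all genes tested 30.8% rose and 30.6% fell. The calls of Bcl2, Bcl2l11, Casp9 and Diablo, named after their values were seen, were marginal. Their groups overlapped in CPM, with edgeR adjusted p of 0.0366 to 0.0456. The largest rises were those of the antiapoptotic genes Bcl2a1b (4.98 ± 0.556 CPM against 1.06 ± 0.456 CPM in control, 4.67-fold) and Bcl2a1a (0.643 ± 0.0957 CPM against 0.136 ± 0.165 CPM, 4.60-fold), and Bcl2a1d rose 1.95-fold. These 3 near-identical copies, named after their values were seen, are low in counts and may share reads. Apaf1, the scaffold of the apoptosome and another p53 target, rose 1.48-fold (15.9 ± 0.343 CPM against 10.8 ± 0.441 CPM in control), Cycs, the cytochrome c gene, rose 1.46-fold, and Bak1, the relative of Bax, rose 1.42-fold. Other antiapoptotic genes, Bcl2l1 and Bcl2l2, fell 1.37-fold and 1.34-fold, and Bok, a proapoptotic relative of Bax, fell 1.28-fold. Mcl1, the partner of NOXA, named here after its values were seen, had 290.3 CPM in the libraries labelled cKO and 298 CPM in control and did not pass (adjusted p = 0.131). In the desmosome, where the PERP protein sits, 4 of 13 genes rose and 6 fell (median -0.04), where 30.8% of all genes tested rose and 30.6% fell. The cadherin genes Dsc2, Dsg1b and Dsg3 rose 2.30-fold, 1.901-fold and 1.68-fold. The plaque genes Pkp2 and Dsp fell 1.98-fold and 1.16-fold, and Dsg1a fell 1.13-fold. Dsg1a and Dsg1b are close copies whose reads the counting could have split.

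Levels of different genes were compared per length, in FPKM, the deposited values scaled to gene length and library total. Perp led in both groups, with 3385 ± 11.8 FPKM in the libraries labelled cKO and 3260.0 ± 17.9 FPKM in control (SD, n = 3 each), 27.6 times and 24.0 times the level of Cdkn1a, which came second. Cdkn1a had 123 ± 2.64 FPKM in the libraries labelled cKO and 136 ± 1.3 FPKM in control. In the libraries labelled cKO the order went on with Bax (35.4), Ccng1 (26.1), Btg2 (25.8), Trp53 (17.4), Trp53inp1 (15.7), Pmaip1 (6.46), Mdm2 (6.35) and Bbc3 (1.76 FPKM). In control it went on with Trp53inp1 (30.1), Bax (28.8), Btg2 (28.8), Ccng1 (14.9), Trp53 (11.6), Mdm2 (6.16), Bbc3 (1.95) and Pmaip1 (1.63 FPKM). Neighbours whose libraries overlapped were Ccng1 with Btg2 and Pmaip1 with Mdm2 in the libraries labelled cKO, and Trp53inp1 with Bax and Bax with Btg2 in control. Trp53inp1 thus stood below Trp53 in the libraries labelled cKO and above it in control, and Pmaip1 was above Bbc3 in the libraries labelled cKO and below it in control. Among the libraries labelled cKO the highest value of Trp53inp1 (16.32 FPKM) was just under the lowest of Trp53 (16.39 FPKM). So close an order between genes also rests on the lengths used and on how reads were assigned.

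**Figure D3:**
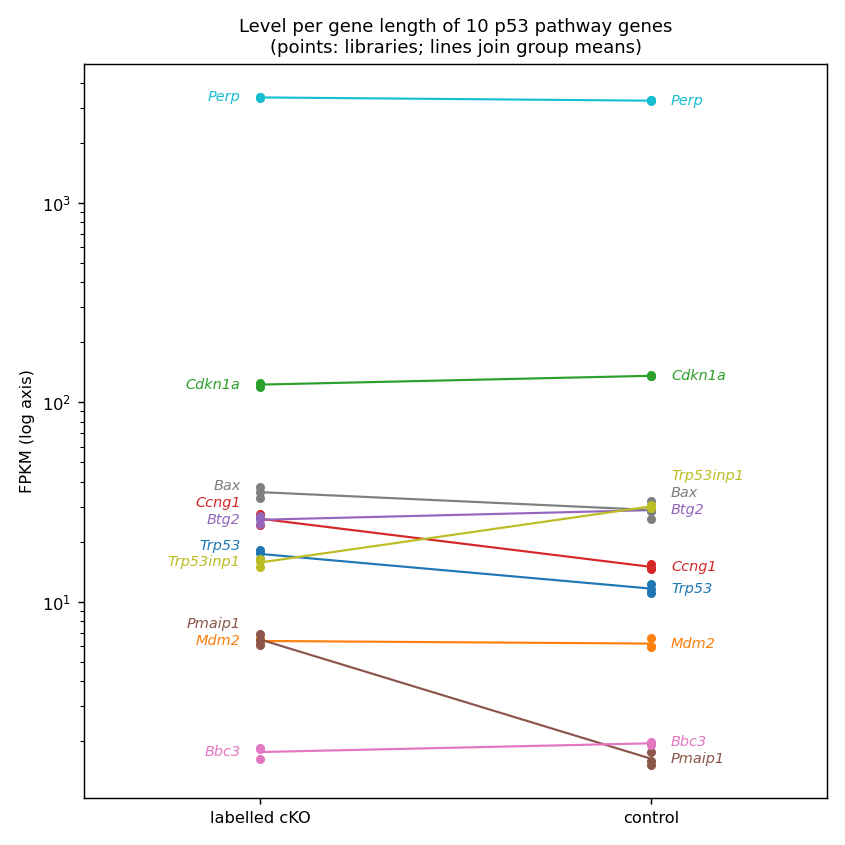
FPKM (vertical log axis) of the 10 genes in the libraries labelled cKO (left) and in control (right), with 1 point per library and lines joining the group means. Perp lies far above the rest in both groups at 3385 and 3260.0 FPKM, and the steep lines are those of Pmaip1, at 6.46 FPKM in the libraries labelled cKO and 1.63 FPKM in control, and Trp53inp1, at 15.7 and 30.1 FPKM.

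Further p53 targets also moved both ways. Of 34 further targets written as a list with earlier results of these data known, 33 were in the table and 32 were tested, of which 16 rose and 8 fell (75%, beside 61.4% of all genes tested, median log2 fold change 0.19). Ddit4l, a stress-induced relative of the mTOR inhibitor REDD1, rose 3.73-fold (7.25 ± 0.864 CPM against 1.94 ± 0.34 CPM in control, adjusted p = 4.87e-14). The death receptor gene Eda2r rose 2.37-fold (7.79 ± 0.344 CPM against 3.29 ± 0.993 CPM). Sfn, which encodes stratifin, a 14-3-3 protein abundant in stratified epithelium, rose 2.31-fold (2048 ± 7.48 CPM against 888 ± 15.6 CPM, adjusted p = 7.29e-72). Phlda3, an inhibitor of AKT signalling, rose 1.78-fold, Sesn2, a stress-induced regulator of mTORC1, rose 1.28-fold, and Zmat3, an RNA-binding protein gene, rose 1.22-fold. Of the genes that fell most, Xpc fell 1.56-fold (19.98 ± 1.29 CPM against 31.1 ± 0.849 CPM), Gadd45a fell 1.55-fold (22.8 ± 2.67 CPM against 35.4 ± 1.04 CPM) and Ddb2 fell 1.55-fold (7.77 ± 0.0878 CPM against 12.02 ± 1.14 CPM). Gdf15 had 35 counts over the libraries labelled cKO and 18 over control, too few to be tested. With an assumed BCV of 20%, 8 of these targets were called higher and 3 lower.

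The deposited table itself annotates 71 genes to the p53 signaling pathway, among them 8 of the 10 genes here, all but Btg2 and Trp53inp1. Of the other 63, 62 were tested, and 29 rose and 20 fell (79.0% called, beside 61.4% of all genes tested, median log2 fold change 0.10). The risers held cyclin and CDK genes such as Ccne1, Ccnb2 and Cdk1, and the fallers held Gadd45a, Ddb2, Mdm4 and Bcl2l1. Neutrophil, fibroblast and keratinocyte markers moved with the same contrast as all of these lists, by the amounts given above.

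**Figure D4:**
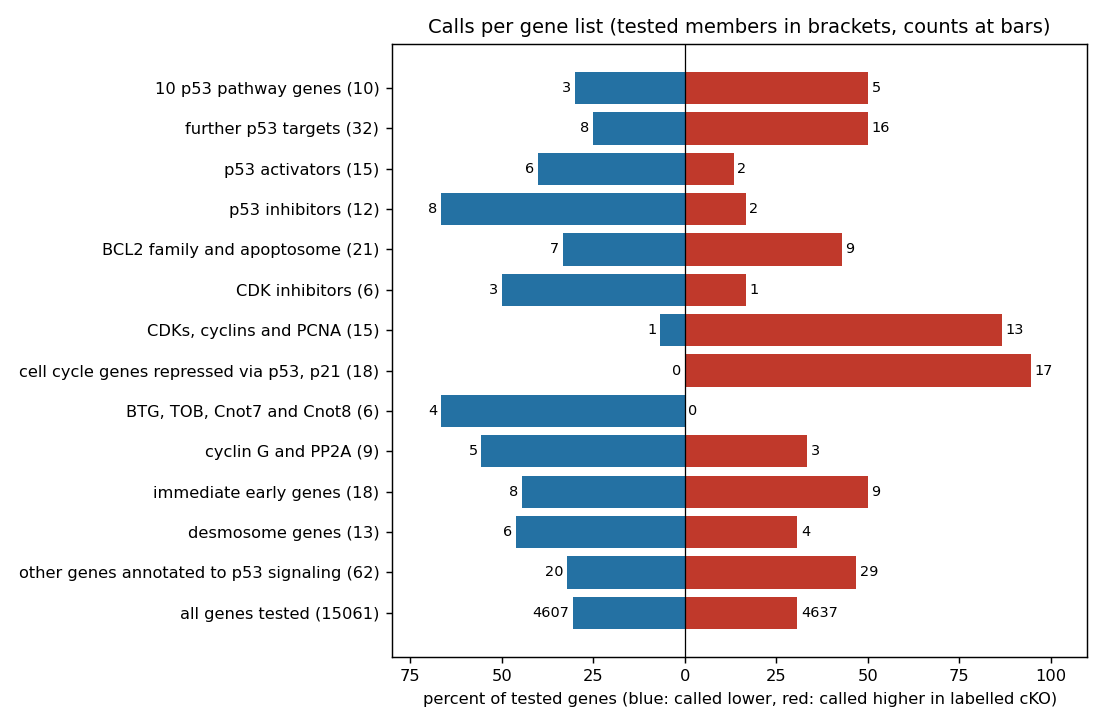
Percent of tested genes called higher (red, to the right) or lower (blue, to the left) in the libraries labelled cKO, for the 10 genes, the lists around them and all genes tested; the number tested is in brackets and the number called stands at each bar. The cell cycle genes described as repressed through p53 and p21, also general genes of dividing cells, lie farthest to the right, with 17 of 18 called higher. The 10 genes show 5 called higher and 3 lower.

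**Figure D5:**
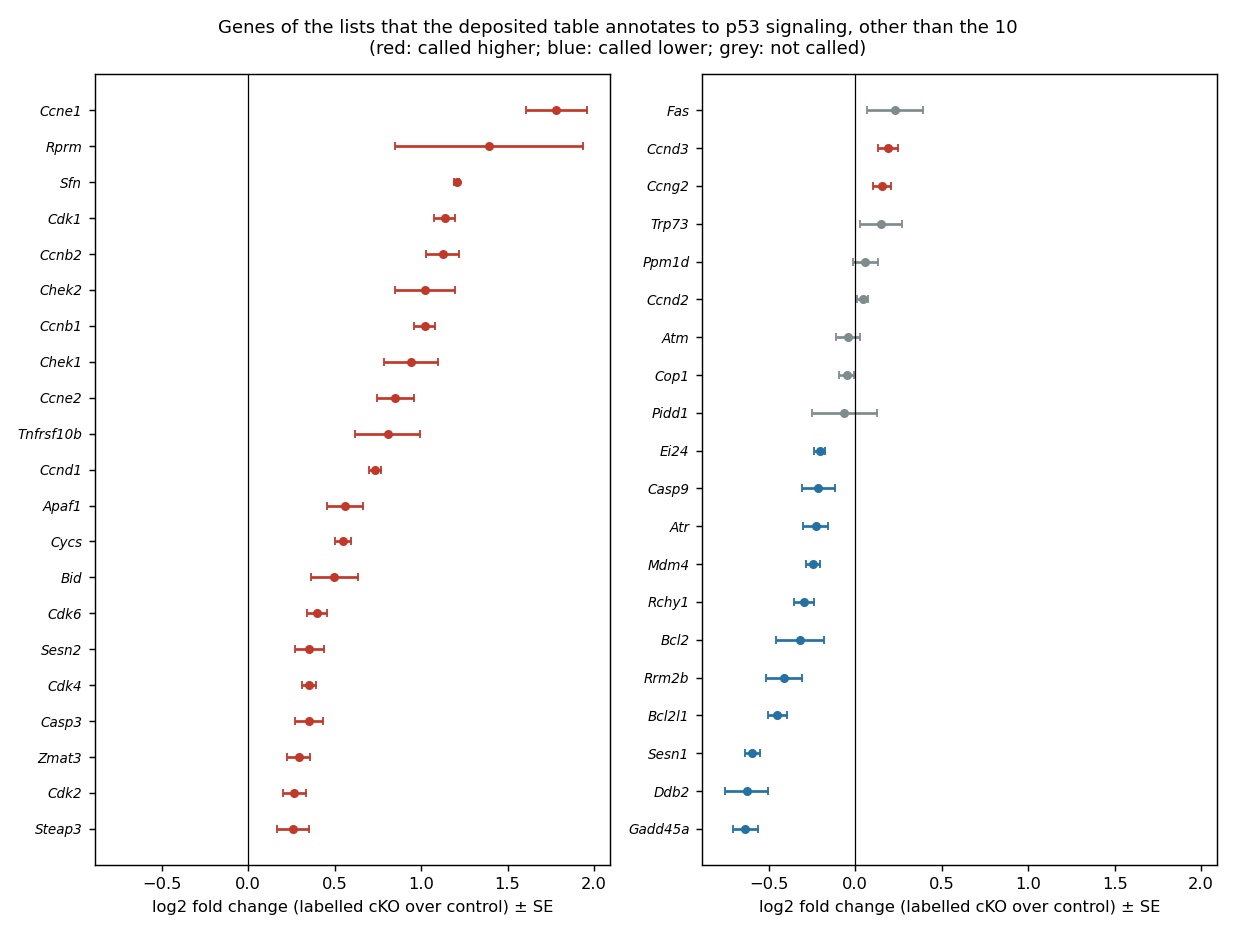
Log2 fold change ± SE (horizontal axes) of the 41 tested genes that are annotated to p53 signaling and stand in the lists described here, other than the 10, ordered from the largest rise (top left) to the largest fall (bottom right), in red where called higher, blue where called lower and grey where not called. Ccne1 stands at the top with 1.78, and Gadd45a at the bottom with -0.64.

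Genes whose pattern over the 6 libraries was most like that of Trp53, Cdkn1a, Mdm2 or Perp were sought among genes within 2-fold of its mean CPM, by the root mean square difference of log2 CPM centred on the control mean. For Trp53 they were Itpr2, Hspbp1 and Zkscan6, with differences of 0.019 to 0.037 among 5178 candidates. Cdkn1a was closest to Cs, Ubqln1 and Sptssa (0.010 to 0.020 among 1100), and Mdm2 to Neurl4, Mrps14 and Ddx47 (0.018 to 0.020 among 5016). Perp had 16 candidates, and the closest were Hrnr (0.010), Dmkn (0.053) and Krt5 (0.10), 3 genes of keratinocytes. The 16 were set by the high level of Perp, so the cell type of the closest is no separate result. Krt5 was less alike, with a log2 fold change of 0.17 against 0.03 for Perp. With 2 groups such likeness mainly records a similar fold change.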

How the data were processed

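The authors deposited whole-number counts per gene, not normalized, and FPKM for the same 18180 genes. Reads went through fastp, HISAT2 and HTSeq on mm39, per the submitters' processing notes; versions, annotation, strand setting and handling of multiply aligned reads: not given in the sources used here. The deposited FPKM equalled counts divided by 1 whole number per gene and by the library's sum, to within 1e-06 relative, so they hold the same reads. That number was derived from the counts and FPKM themselves and read as the gene's length in bases. It was not compared with an annotation. Libraries were grouped by title. The test was edgeR 4.0.16 under R 4.3.3 (filterByExpr with a minimum count of 10 and total of 15, TMM scaling, robust quasi-likelihood test, group as the only term, two-sided, Benjamini-Hochberg adjustment over 15061 genes, threshold 0.05). Standard errors are the log2 fold change over the square root of F. Exact permutation of 3 against 3 libraries cannot go below p = 0.1. All pairs of libraries within a group differed by more than counting noise (chi-square per degree of freedom 3.94 to 4.12). That shows they are not copies of the same counts, but does not tell separate animals from technical repeats. At this depth 3 counts are 0.0817 to 0.0837 CPM. The fit was first tested on simulated data. Alternatives used DESeq2 1.42.0 and limma 3.58.1, other scalings and filters, FPKM, a replicate block, assumed BCVs and leaving out each library. The 10 genes, the lists and the naming rule (from each list up to 3 called genes per direction averaging 5 CPM or more in either group, and Gadd45a, Sesn2, Zmat3, Phlda3, Ccng2, Mdm4, Trp63, Trp73 and Cdkn2a always) were chosen with earlier results of these data known. Promoter sequences are RefSeq's, build GRCm38.p6, and are not on the build of the counts.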

Additional observations from a re-analysis of the deposited data

How the results depend on the processing

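Among the 10 genes, 5 were called higher and 3 lower under all 19 alternatives other than an assumed BCV, which include DESeq2, limma-voom, other scalings and filters, limma on FPKM and an adjusted p of 0.01. Leaving out each library in turn gave 5 to 5 higher and 3 to 3 lower for the 10 genes, 14 to 16 higher and 8 to 8 lower for the further p53 targets, and 4372 to 4478 higher and 4309 to 4369 lower for all genes. With the replicate number as a block the 10 genes again had 5 called higher and 3 lower, and all genes 4625 higher and 4587 lower. Same-numbered libraries did not deviate together (correlations of -0.022, -0.0099 and -0.041), so the numbers were not taken as pairs. An assumed BCV of 20% left 2 of the 10 genes higher and 1 lower, 8 further targets higher and 3 lower, and 1830 genes higher and 1531 lower. At 40% there was 1 higher and 0 lower of the 10 (edgeR likelihood ratio test, 1 and 1 at an unadjusted p under 0.05), 1 higher and 0 lower of the further targets (5 and 0 unadjusted), and 458 higher and 316 lower of all genes. By its construction this setting widens the spread. Adjusted p over the 21 alternatives ran from 4.92e-16 to 0.884 for Trp53, with 0.0787 at a BCV of 20%. Genes named after their values were seen were not run here. Pmaip1 kept its call in all 21, with log2 fold changes of 1.505 to 2.03. Of 68 called genes that the naming rule chose, 40 lost their call at a BCV of 20% and 63 at 40%. Atr, Atf3 and Cdkn1c lost their calls in 2, 2 and 9 of the 19 alternatives without an assumed BCV. Gdf15, Cdkn2a and Hrk had too few counts to be tested.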

Other observations

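The deposited table annotates further genes to p53 signaling, and those given here were chosen after their values were seen. Gadd45g, a relative of Gadd45a in the growth arrest and DNA damage family, fell 2.53-fold in the libraries labelled cKO (10.8 CPM against 27.4 CPM in control, log2 fold change -1.34, SE 0.095, adjusted p = 7.76e-21). Igfbp3, which encodes a binding protein of insulin-like growth factors, fell 1.91-fold, while Igf1 itself rose 1.454-fold. Cd82, a tetraspanin gene, fell 1.70-fold, and Thbs1, the thrombospondin gene, fell 1.51-fold. Casp8, the initiator caspase of death receptors, rose 1.61-fold, and Rrm2, a ribonucleotide reductase subunit gene of dividing cells, rose 2.02-fold. Its p53-induced counterpart Rrm2b fell 1.33-fold (11.6 CPM against 15.5 CPM, adjusted p = 0.000386). Among the sestrins, Sesn1 and Sesn3 fell 1.51-fold and 1.46-fold, and Sesn2 rose 1.28-fold. The part of the neutrophil, fibroblast and keratinocyte markers in these values was not tested.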
